A study of Mus musculus with 8 samples.

Results

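Intergenic H3K27ac regions lying 1 to 50 kb from genes were taken from the 3 lists of H3K27ac UP, H3K27ac DOWN and unchanged regions of mouse primary hepatocytes (MPH) under endoplasmic reticulum stress (ERS). A region was kept when no transcription start site (TSS) of any gene lay in it or within 1 kb, when its midpoint lay outside the span of every protein-coding gene, and when the nearest protein-coding TSS was at most 50 kb from its edge. The rule used annotation only, and 5012 of the 32196 regions met it. Of these, 582 lay in the span of a noncoding gene or pseudogene, and 115 reached with an edge into a protein-coding gene. The hepatocytes came from adult male wild-type mice of the C57Bl6 background and were kept in medium without serum. They received 1 µM thapsigargin, which blocks the calcium pump of the endoplasmic reticulum (ER), or 0.04% DMSO as vehicle, for 4 h in both cases. Each treatment had 3 H3K27ac libraries and 1 input library. The processed lists give 1 class per region, set by the authors over all libraries at once, and hold no value for a library. Hence depth is unknown, no spread between mice can be given, and the intervals printed with shares and differences cover counting error only, with regions as units.

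H3K27ac is an acetyl mark that histone acetyltransferases such as p300 and CBP place on nucleosomes of active promoters and enhancers. Away from promoters it marks enhancers, where transcription factors bind and which can act on genes at a distance on either side. Hepatocyte enhancers are known for dense binding by liver factors such as HNF4A, FOXA and CEBP proteins. ERS starts the unfolded protein response (UPR), whose factors ATF4, CHOP, ATF6 and XBP1 change the transcription of genes for protein folding, amino acid supply and cell survival. The labelled cell type was checked at TSSs. Every one of 6 hepatocyte markers (Alb, Ttr, Apoa1, Serpina1a, Hnf4a and Fga) had a TSS in an H3K27ac region, against 1 of 6 Kupffer cell markers (Cd68), 1 of 6 endothelial markers (Stab2), 0 of 6 stellate cell markers and 2 of 6 cholangiocyte markers (Sox9, in an UP region, and Spp1). How far other cells contributed to the changed intergenic regions was not tested.

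Short motifs differed in frequency between UP and DOWN intergenic regions, so examples of them are shown first, with their shares given further on. All are the plus strand of mm10 (GRCm38) and run 50 bases to each side of the match nearest to the centre of the region, which in such wide regions can lie outside the central 300 bp from which the shares were taken. In motifs, N stands for any base. The first set comes from the widest UP regions and shows matches to TGANTCA in capitals. This pattern holds the AP-1 motif, which FOS, JUN and ATF family dimers bind. Its middle base is free, so TGAATCA counts too, as in the Ly6l stretch. The AP-1 shares were not split by that base. The genome file marks 0% of the bases of the Clec2d stretch, 23.4% for Ly6l and 20.6% for Lcor as repeat or low complexity.
Clec2d UP region, AP-1, chr6:129216444-129216550: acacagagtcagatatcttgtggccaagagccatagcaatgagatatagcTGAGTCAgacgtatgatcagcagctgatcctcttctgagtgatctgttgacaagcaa
Ly6l UP region, AP-1, chr15:75398674-75398780: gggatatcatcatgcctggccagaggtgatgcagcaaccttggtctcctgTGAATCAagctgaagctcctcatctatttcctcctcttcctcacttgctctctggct
Lcor UP region, AP-1, chr19:41451977-41452083: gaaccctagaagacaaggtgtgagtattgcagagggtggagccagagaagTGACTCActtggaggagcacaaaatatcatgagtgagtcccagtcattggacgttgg

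The next set comes from the same UP regions and shows the composite motif of ATF4 and CHOP, TGATGNAAN, the element through which these factors act on many stress genes. Here the marked share was 100% for Ly6l, 88.1% for Clec2d and 84.4% for Lcor.
Clec2d UP region, ATF4-CHOP, chr6:129218951-129219059: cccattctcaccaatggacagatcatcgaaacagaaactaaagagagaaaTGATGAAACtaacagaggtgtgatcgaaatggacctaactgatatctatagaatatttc
Ly6l UP region, ATF4-CHOP, chr15:75395631-75395739: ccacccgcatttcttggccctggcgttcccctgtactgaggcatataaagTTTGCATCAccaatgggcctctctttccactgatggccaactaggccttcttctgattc
Lcor UP region, ATF4-CHOP, chr19:41452584-41452692: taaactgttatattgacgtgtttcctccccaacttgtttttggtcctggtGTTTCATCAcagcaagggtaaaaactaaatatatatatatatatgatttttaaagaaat

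The last set comes from wide DOWN regions and shows AGGTCA, the core motif to which nuclear receptors bind. It was added after the shares had been seen, since this motif was the only one of 14 called as more frequent in DOWN than in UP regions in the central window.
Etfbkmt DOWN region, nuclear receptor motif, chr6:149154184-149154289: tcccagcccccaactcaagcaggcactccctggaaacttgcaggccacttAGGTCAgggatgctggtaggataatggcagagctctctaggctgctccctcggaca
Egfr DOWN region, nuclear receptor motif, chr11:16740722-16740827: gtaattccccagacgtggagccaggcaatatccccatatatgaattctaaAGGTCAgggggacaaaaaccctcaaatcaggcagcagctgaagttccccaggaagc
Dusp10 DOWN region, nuclear receptor motif, chr1:184082710-184082815: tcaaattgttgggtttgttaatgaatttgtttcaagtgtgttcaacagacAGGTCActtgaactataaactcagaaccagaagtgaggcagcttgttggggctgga
These windows are examples of a match and not measured binding sites.

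Thapsigargin raised H3K27ac at 787 of the intergenic regions (15.7%, 95% Wilson interval from 14.7% to 16.7%) and lowered it at 664 (13.2%, from 12.3% to 14.2%), while 3561 did not pass the authors' threshold. Over all regions, 17.1% were UP, 10.5% were DOWN and 27.6% were either. UP regions made 54.2% of the changed intergenic regions (from 51.7% to 56.8%) and 63.5% of the changed regions among the other 27184, a difference of -9.28 points (95% Newcombe interval from -12.1 to -6.50). The balance between both directions was thus closer to even than in all other regions together. Against intergenic regions beyond 50 kb alone, where UP made 58.2% of the changed, the difference of -3.92 points (from -7.98 to 0.17) was within counting error. The DOWN share was higher than in the other 27184 regions by 3.27 percentage points (from 2.29 to 4.30). The DOWN difference was 5.60 points for regions of at least 1 kb, 4.92 points within 5 groups of region width and 2.11 points with the nearest TSS at most 20 kb away, called in each case. The UP share differed by -1.66 points (from -2.75 to -0.54), a call that was lost within 5 groups of region width (-0.66 points, from -1.76 to 0.44) and with 1 region per gene (-1.29 points, from -2.60 to 0.08).

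Set beside single groups of regions, the intergenic ones had a higher DOWN share than both regions within 1 kb of a TSS and distal regions inside genes. The DOWN share was 8.66% of the 12504 regions within 1 kb of a TSS (4.59 points lower, from 3.55 to 5.67) and 10.6% of the 11733 distal regions inside protein-coding genes (2.66 points lower, from 1.59 to 3.77). It was 13.1% of the 2947 intergenic regions beyond 50 kb, where the difference of 0.12 points had an interval from -1.44 to 1.64. The intergenic UP share of 15.7% was below the 18.3% within 1 kb of a TSS (-2.64 points, from -3.83 to -1.40) and the 18.3% beyond 50 kb (-2.55 points, from -4.29 to -0.85). It differed from the 16.1% inside genes by -0.41 points (from -1.60 to 0.82).

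Wide intergenic regions were more often changed, and more often DOWN. Unchanged intergenic regions had a median width of 1009 bp, UP regions 1417 bp and DOWN regions 1807 bp. With the intergenic regions split by width into 5 groups of like size, 10.3% of the narrowest group were UP and 4.39% DOWN, whereas 19.4% of the widest group were UP and 27.9% DOWN. UP regions accordingly fell from 70.1% to 41.1% of the changed ones. A wider region holds more of the 150 bp bins whose results the authors combined, and the part of bin number in these shares was not tested. The 5 widest UP regions had Clec2d, Ly6l, Lcor, Crot and E230025N22Rik as nearest genes, led by a region of 14110 bp at chr6:129211278-129225387, which starts 30663 bp downstream of the Clec2d TSS. The 5 widest DOWN regions lay nearest to Etfbkmt, Eif1a, Egfr, Dusp10 and Rnf125. The one 5317 bp upstream of Egfr, which encodes the receptor for epidermal growth factor, spanned 12033 bp (chr11:16734854-16746886), and the TSS region of Egfr itself was DOWN too.

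The share of UP regions did not differ beyond counting error between the nearest and the farthest distances. It was 14.7% of 876 regions at 1 to 5 kb, 16.8% of 1004 at 5 to 10 kb, 15.8% of 1235 at 10 to 20 kb and 15.5% of 1897 at 20 to 50 kb. The nearest and the farthest of these bins differed by -0.77 points (from -3.55 to 2.17), which was within counting error. DOWN regions made up 11.2%, 13.1%, 12.6% and 14.7% of the same bins. The DOWN share at 1 to 5 kb differed from that at 20 to 50 kb by -3.47 points (from -6.01 to -0.74). This difference was -3.30 points (from -7.31 to 1.01) for regions of at least 1 kb and -2.17 points (from -5.28 to 0.94) with 1 region per gene, and neither interval excluded 0. Measured from the region midpoint in place of its edge it was -6.21 points (from -8.67 to -3.49). Unchanged regions lay at a median distance of 13950 bp, UP regions at 14553 bp and DOWN regions at 15798 bp.

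Class shares upstream and downstream of the TSS did not differ beyond counting error. Upstream of the nearest TSS lay 3472 regions, of which 551 were UP (15.9%) and 451 DOWN (13.0%). Downstream of it, and by the rule past the 3′ end of that gene, lay 1540 regions, of which 236 were UP (15.3%) and 213 DOWN (13.8%). Upstream minus downstream, the UP share differed by 0.55 points (from -1.68 to 2.67) and the DOWN share by -0.84 points (from -2.95 to 1.16). With 1 region per gene the DOWN difference was -2.64 points (from -5.28 to -0.17), and this was the only alternative in which a class share differed with the side.

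**Figure D1:**
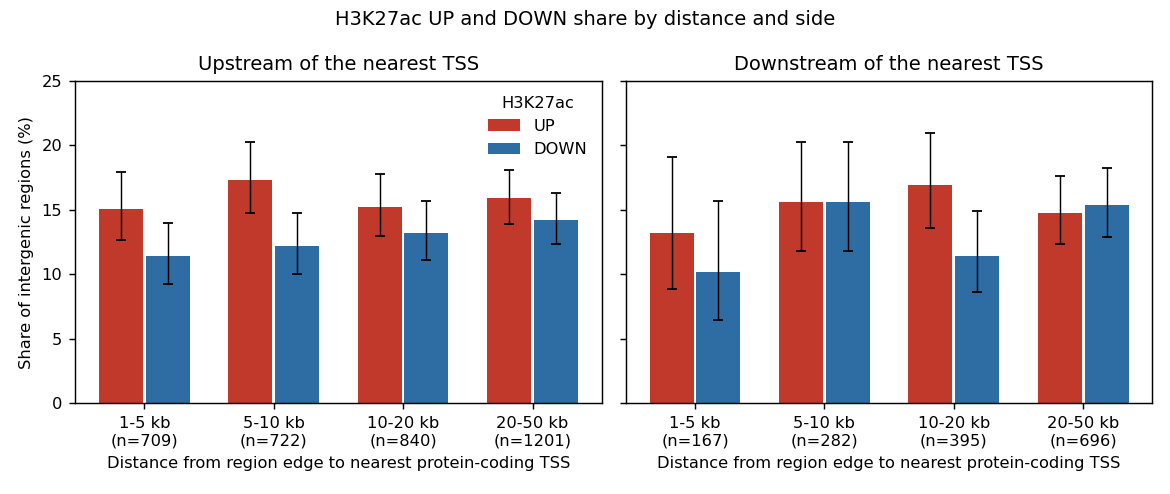
Share of intergenic regions that were H3K27ac UP or DOWN (y axis, %) by distance from the region edge to the nearest protein-coding TSS (x axis, kb), upstream and downstream of that TSS along its strand. Bars are shares, error bars 95% Wilson intervals and n the number of regions, and the UP bars stay between 13.2% and 17.3% in all groups.

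Intergenic regions tended to change in the direction of the TSS of their nearest gene. The class of a gene was taken over all its TSSs, so a gene with an UP TSS can have another TSS, nearer to the region and used for the distance, that lies in no listed region. Among 789 regions nearest to a gene whose TSS lay in an UP region, 193 were UP (24.5%) and 69 were DOWN (8.75%). Among 501 nearest to a gene with a DOWN TSS, 52 were UP (10.4%) and 127 were DOWN (25.3%). Next to the 2182 with an unchanged TSS, 307 were UP (14.1%) and 277 were DOWN (12.7%). The 1506 whose nearest gene had no TSS in a listed region held 15.2% UP and 12.5% DOWN regions, and 34 more had TSSs in both classes. No listed region at a TSS does not show that the promoter lacked H3K27ac, since the authors removed regions with mixed changes.

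UP intergenic regions were thus more frequent at UP-TSS genes, and DOWN intergenic regions at DOWN-TSS genes, than at genes with an unchanged TSS. The first difference was 10.4 points (from 7.14 to 13.8) and the second 12.7 points (from 8.76 to 16.9). Regions of the opposite direction were rarer: DOWN regions at UP-TSS genes by -3.95 points (from -6.25 to -1.40) and UP regions at DOWN-TSS genes by -3.69 points (from -6.51 to -0.40). The last of these 4 calls was lost under 3 alternatives, with values from -3.58 to -3.08 points. Among changed regions alone, UP-TSS genes had a share of UP regions 44.6 points higher than DOWN-TSS genes (from 35.6 to 52.5), and this call held under every alternative that was run. With the class taken only from the TSS used for the distance, the difference was 53.1 points (from 42.7 to 61.6).

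**Figure D2:**
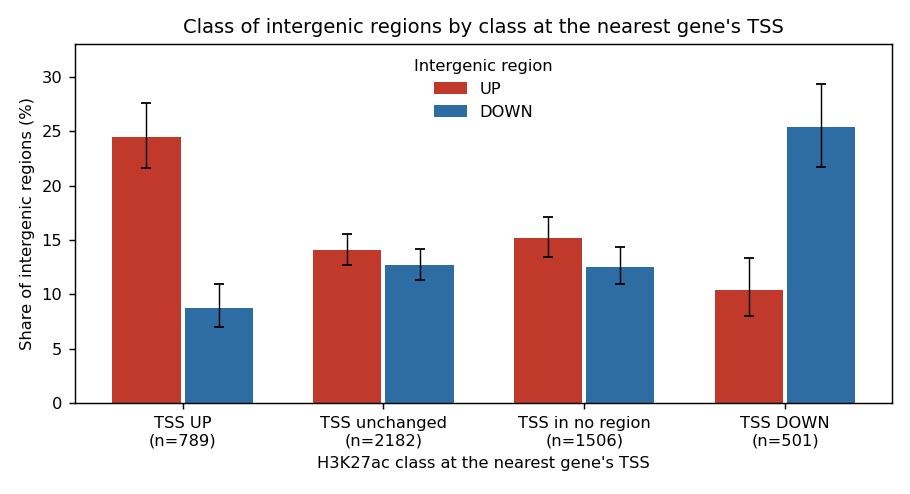
Share of intergenic regions that were H3K27ac UP or DOWN (y axis, %), grouped by the H3K27ac class at the TSS of the nearest protein-coding gene (x axis). Error bars are 95% Wilson intervals and n is the number of regions. The UP share is highest at UP-TSS genes (24.5%) and the DOWN share at DOWN-TSS genes (25.3%).

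Counted as pairs, 320 of 441 changed intergenic regions whose nearest gene had a changed TSS went in the direction of that TSS (72.6%, from 68.2% to 76.5%). Pairing region classes and TSS classes in proportion to their totals would give 51.0%. The 441 regions belonged to 350 genes, so some share a locus. The shared direction was most frequent close to the gene, at 65 of 76 regions (85.5%) within 1 to 5 kb, 67 of 94 (71.3%) at 5 to 10 kb, 73 of 101 (72.3%) at 10 to 20 kb and 115 of 170 (67.6%) at 20 to 50 kb. Between the nearest and farthest bins it differed by 17.9 points (from 6.23 to 27.5). It was also higher upstream, with 242 of 319 (75.9%), than downstream, with 78 of 122 (63.9%), a difference of 11.9 points (from 2.52 to 21.8). That call by side was lost for regions of at least 1 kb, for 1 region per gene and for gene-level 5′ ends, with values from 9.18 to 9.76 points.

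The gene on the other side of the region, whatever its distance, shared the direction of 167 of 271 regions (61.6%, from 55.7% to 67.2%). The difference from the nearest gene's 72.6% was not tested, since both shares rest partly on the same regions. For the 193 changed regions whose nearest gene had no changed TSS, the gene on the other side shared the direction in 120 (62.2%, from 55.2% to 68.7%). Where both flanking genes had changed alike, 38 of 44 regions had their direction (86.4%). Where they had changed in opposite directions, 24 of 31 regions went with the nearer gene (77.4%, from 60.2% to 88.6%). The 31 regions had 26 nearer genes, so some share a locus. The farther TSS lay from 6490 to 287731 bp away, in part far beyond the 50 kb limit of the nearer one. Among these 31 were the UP regions between Srsf5, a splicing factor gene with an UP TSS, and Susd6, whose TSS was DOWN. The DOWN regions upstream of Egfr, whose other neighbour Sec61g (a subunit of the ER translocon) had an UP TSS, also went with the nearer gene. The 12191 bp DOWN region between Etfbkmt, with an UP TSS, and Amn1, with a DOWN TSS, went with the farther one.

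**Figure D3:**
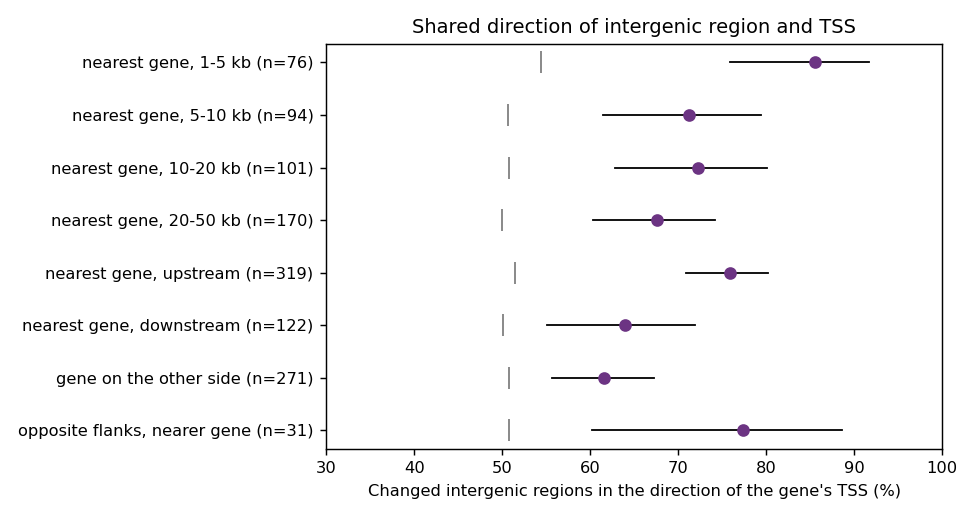
Share of changed intergenic regions in the direction of the TSS of the gene named on the y axis (x axis, %), with 95% Wilson intervals as lines and the share expected from the totals of each class as grey ticks. The 1 to 5 kb bin is at 85.5% and the gene on the other side at 61.6%.

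A shared direction was also found for the other distal regions. Inside protein-coding genes 707 of 1006 changed distal regions (70.3%) had the direction of the nearest changed TSS, and beyond 50 kb 153 of 229 (66.8%) did. The differences to the intergenic value were 2.28 points (from -2.85 to 7.19) and 5.75 points (from -1.48 to 13.2), both within counting error. The DOWN share near DOWN-TSS genes did differ, since it was 25.3% for intergenic regions and 16.5% for regions inside genes, 8.81 points apart (from 4.66 to 13.2). Beyond 50 kb the DOWN share was 19.6%, and its difference of 5.74 points (from -0.25 to 11.4) was within counting error. For UP regions near UP-TSS genes the differences were 2.57 points (from -0.81 to 6.12) inside genes and -0.34 points (from -5.79 to 4.83) beyond 50 kb.

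Several intergenic regions often shared a nearest gene and then mostly a direction. The 5012 regions had 3260 nearest genes, of which 1239 had a changed region and 180 had 2 or more. Of these 180 genes, 76 had only UP, 61 only DOWN and 43 both kinds. Of 179 pairs of neighbouring changed regions on the same side of the same gene, 151 had the same class (84.4%, from 78.3% to 89.0%), where the class shares alone would give 50.4%. The median gap in these pairs was 5344 bp. The authors' joining of bins into regions sets where one region ends and the next begins, and its part in this share was not tested.

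Most of the genes with the most UP intergenic regions had them all on 1 side of the TSS. S100a10, whose product binds annexin A2, had 4 UP regions downstream, at 6916, 18057, 28610 and 35012 bp from its nearest TSS, and the widest spanned chr3:93567643-93573668. That TSS lay in no listed region, while another TSS of S100a10 lay in an UP region. An unchanged region lay 15364 bp upstream of the latter and another 40902 bp downstream of the former. Ccdc71l had 4 UP regions upstream between 25977 and 41339 bp and an UP TSS. Neither gene had a DOWN intergenic region.

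Cobl, an actin nucleator, had 3 UP regions at 5667, 8201 and 14352 bp upstream of an UP TSS. Adra1b, the alpha-1B adrenergic receptor through which catecholamines act on the hepatocyte, had 3 at 8992, 17987 and 25098 bp, again upstream of an UP TSS. Srsf5 had 3 at 7229, 14565 and 18233 bp upstream of an UP TSS. These 3 genes also had 1 unchanged region each, farther away than the UP ones. Not every such gene had a changed promoter: Slc44a1, a choline transporter, had 3 UP regions from 2489 to 29768 bp upstream of an unchanged TSS. An unchanged region lay 44843 bp upstream of that TSS. Serpina7, the thyroxine-binding globulin, had 3 UP regions from 6069 to 45431 bp downstream of an unchanged TSS. The TSSs of Otogl, Pbp2 and Ripor2 lay in no listed region, although these genes had 3, 3 and 2 UP intergenic regions, beside 1 unchanged region each.

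The genes with the most DOWN intergenic regions included several with a DOWN TSS. Selenop, which encodes the selenium carrier of plasma, had 4 DOWN regions upstream, at 14426, 30974, 34187 and 35317 bp, and the nearest was 9022 bp wide (chr15:3245100-3254121). An unchanged region lay at 47136 bp. The TSS from which these distances were taken lay in no listed region, and another TSS of Selenop lay in a DOWN region. Aldh1a1, which makes retinoic acid from retinal, had 3 DOWN regions at 8152, 23556 and 37495 bp upstream of a TSS in no listed region, whereas another of its TSSs was DOWN. Unchanged regions lay 1973 and 18549 bp upstream of the same TSS. Nfe2l2, the gene of the antioxidant regulator NRF2, had 3 DOWN regions at 10901, 14041 and 29103 bp upstream of a DOWN TSS and no other intergenic region. The widest of the 3 lay at chr2:75718682-75724287.

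Actb, for cytoplasmic actin, had 3 DOWN regions from 8126 to 23977 bp upstream of a DOWN TSS, with an unchanged region at 13638 bp. Wfdc21 had 3 DOWN regions from 3420 to 14467 bp upstream of a DOWN TSS. At 5 other genes the DOWN regions lay near a TSS that was not DOWN. Lsm3, part of the U6 snRNA particle, had 4 DOWN regions downstream of an unchanged TSS, and Tpt1 had 3 DOWN regions around an unchanged TSS. Mup20, a major urinary protein gene, had 3 around a TSS in no listed region, and 4930432M17Rik had 3 upstream of such a TSS. Pex26, which anchors peroxisome assembly factors, had 3 DOWN regions at 9943, 13797 and 21037 bp upstream of a TSS that was UP. Unchanged regions lay 3752 and 12235 bp upstream of the same TSS. Lsm3, Mup20 and 4930432M17Rik had 1 unchanged region each, and Tpt1 had 2.

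**Figure D4:**
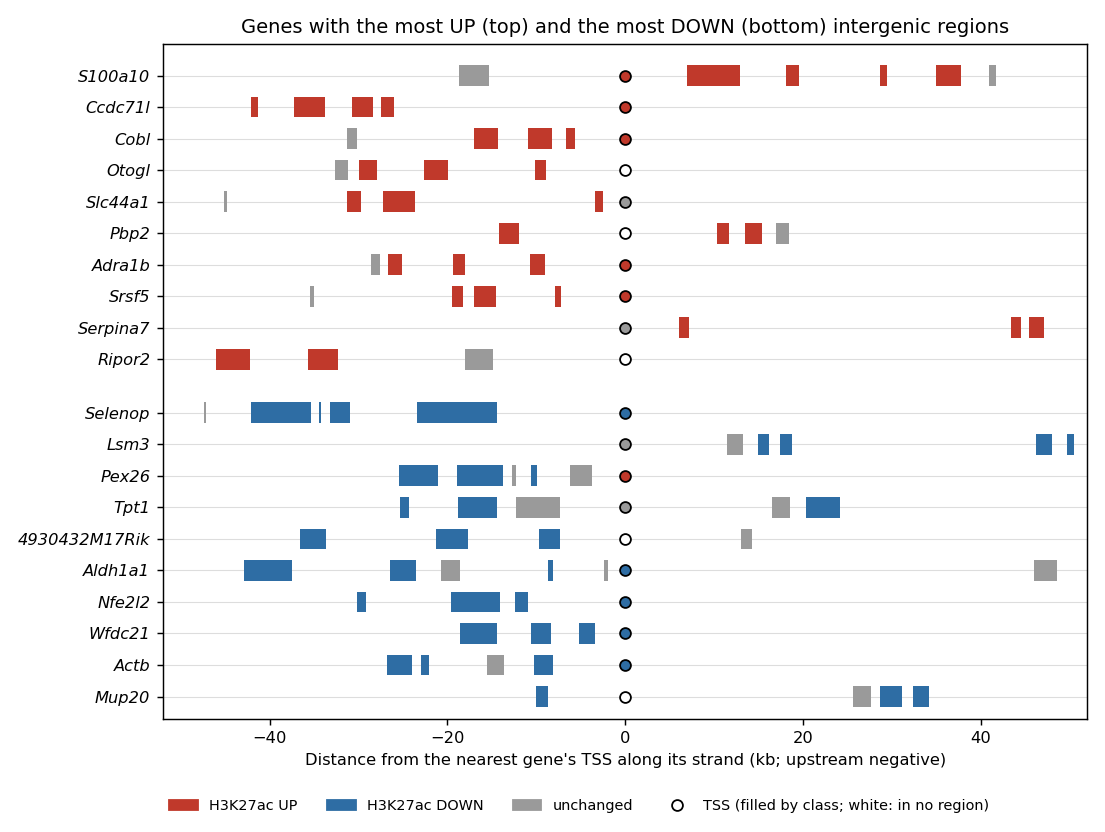
Intergenic regions at the 10 genes with the most UP regions (top) and the 10 with the most DOWN regions (bottom), drawn to scale by distance from the TSS of the gene along its strand (x axis, kb). Boxes are regions coloured by class, each at its distance from the nearest TSS of the gene. The circle is filled by the class over all TSSs of the gene and is white where none lies in a listed region. UP boxes gather at S100a10 (4) and DOWN boxes at Selenop (4).

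Genes of the UPR and of protein folding mostly had a TSS in an UP region, whereas 9.50% of all 21951 protein-coding genes did (3.54% had one in a DOWN region). Of the 9820 protein-coding genes with a TSS in a listed region, 21.2% had an UP TSS and 7.91% a DOWN TSS. Of 28 genes for ER folding and degradation, 26 had a TSS in an UP region and 0 in a DOWN region. These genes were nearest to 6 intergenic regions, of which 2 were UP and 0 DOWN. Both lay at genes with an UP TSS: a region of 5256 bp (chr15:88827645-88832900) at 7999 bp downstream of Creld2, an ER chaperone gene, and one 1887 bp upstream of Edem1, which takes misfolded glycoproteins to degradation. Of 19 genes for UPR sensors and factors, 15 had an UP TSS and 1 a DOWN TSS, and of their 24 intergenic regions 5 were UP (20.8%, from 9.24% to 40.5%) and 3 DOWN (12.5%, from 4.34% to 31.0%). These intervals include the 15.7% and 13.2% of all intergenic regions. Atf3 had UP regions at 21125 and 36275 bp upstream of a TSS in no listed region, and another of its TSSs was UP.

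Xbp1, the factor made active by IRE1 splicing, had 5 intergenic regions, and 1 of them passed the threshold, an UP region 4433 bp downstream of its UP TSS. The 4 unchanged ones lay upstream, from 9956 to 33449 bp. Sesn2, a stress-induced inhibitor of mTORC1, had 1 UP region 2802 bp upstream of an UP TSS. Ddit4, also an inhibitor of mTORC1, had 2 DOWN regions, 7779 bp downstream and 17742 bp upstream, and its TSS lay in no listed region. Its other regions, 29957 and 34726 bp downstream, were unchanged. Among 23 genes for amino acid supply and tRNA synthetases, 17 had an UP TSS, while their 7 intergenic regions held 2 UP and 1 DOWN. The UP ones lay 42143 bp upstream of Slc38a2, a neutral amino acid transporter with an UP TSS, and 13129 bp downstream of a TSS of Cth, which makes cysteine and whose other TSS region was unchanged. The DOWN one lay upstream of Gars, the glycyl-tRNA synthetase gene, whose TSS was DOWN.

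Genes of AP-1 and other immediate-early factors were nearest to 20 intergenic regions, 2 UP (95% Wilson interval of the share from 2.79% to 30.1%) and 6 DOWN (from 14.6% to 51.9%), beside 15.7% and 13.2% of all intergenic regions. The 20 regions had 9 nearest genes and the 6 DOWN ones 4, so some share a locus, which the intervals leave out. The list was chosen with results of these data known, and no difference was tested. Ier3 had 2 DOWN regions (4752 and 16836 bp upstream) of an unchanged TSS, and Klf6 had 2 (28355 and 33838 bp upstream) of a DOWN TSS. Ier3 and Klf6 each had 3 unchanged regions as well. Fos, a subunit of AP-1, had a DOWN region 9243 bp downstream of a TSS in no listed region, and its TSS region was unchanged. The other 3 intergenic regions of Fos, all upstream, were unchanged. The promoter of Myc was UP, and its only intergenic region within 50 kb, 28810 bp downstream, was DOWN.

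Genes of hepatocyte identity, in the study's list of 621 LIVER-ID genes drawn from broad H3K4me3 domains of liver, were nearest to 416 intergenic regions. Of these, 62 were UP (14.9%, from 11.8% to 18.7%) and 68 were DOWN (16.3%, from 13.1% to 20.2%), beside 15.7% and 13.2% of all intergenic regions. The 371 regions of UBQ genes, the study's list of genes with broad H3K4me3 domains in many tissues, held 14.6% UP (from 11.3% to 18.5%) and 13.7% DOWN (from 10.6% to 17.6%). All these intervals include the shares of all intergenic regions. LIVER-ID transcription factors were nearest to 40 regions, 6 UP and 9 DOWN. Foxa1, a pioneer factor of liver enhancers, had 1 intergenic region, which was DOWN and lay 5787 bp downstream of a DOWN TSS. Nr5a2 (LRH-1), a nuclear receptor of bile acid and cholesterol metabolism, had a DOWN region 49482 bp and an UP region 5676 bp upstream of a TSS that was unchanged, and another of its TSSs was DOWN. Id2 likewise had 1 of each and a DOWN TSS.

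Detoxification genes were described by 2 lists. Cytochrome P450 genes of families 1 to 4 had 2 UP and 6 DOWN (15.4%, from 7.25% to 29.7%) of 39 intergenic regions. UGT, GST and SULT genes had 2 UP and 7 DOWN (17.9%, from 8.98% to 32.7%) of 39. Both DOWN intervals include the 13.2% of all intergenic regions. The DOWN regions included one of 4429 bp upstream of Cyp4b1, one of 2541 bp upstream of Cyp2c70, which takes part in making muricholic acids, and 2 upstream of Gsta1. Gstp3 went the other way, with an UP region of 5246 bp at 6693 bp upstream of a DOWN TSS. Each list's UP share of 5.13% has an interval from 1.42% to 16.9%, which still holds the 15.7% of all intergenic regions.

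Plasma protein genes had 5 UP (12.2%, from 5.32% to 25.5%) and 7 DOWN (17.1%, from 8.53% to 31.3%) of 41 intergenic regions, beside 15.7% and 13.2% of all. Of the 58 genes 17 had a DOWN TSS and 2 an UP TSS, where 3.54% and 9.50% of all protein-coding genes did. Among the 9820 protein-coding genes with a TSS in a listed region, 7.91% had a DOWN TSS and 21.2% an UP TSS. Alb, for albumin, had 7 regions upstream of an unchanged TSS, of which those at 10301 and 44924 bp were DOWN and the 5 between them unchanged. Trf, for transferrin, had a DOWN region of 7211 bp (chr9:103238603-103245813) at 8159 bp upstream of a DOWN TSS. Trf also had TSSs in unchanged regions, farther away. Gc, for the vitamin D binding protein, had an UP region of 6961 bp at 8363 bp upstream of an unchanged TSS. Apoa5, which sets plasma triglycerides, had an UP region of 6100 bp (chr9:46255883-46261982) upstream of an UP TSS.

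Genes of lipid, bile acid and glucose metabolism had 7 UP (12.3%, from 6.08% to 23.3%) and 8 DOWN (14.0%, from 7.29% to 25.3%) of 57 intergenic regions, intervals that include the shares of all intergenic regions. Insig2, an ER anchor that holds back the sterol sensor SCAP, had a DOWN TSS and regions of both classes: DOWN at 15421 bp upstream of it, and UP at 25979 and 28299 bp downstream of another TSS in no listed region. The other 3 regions of Insig2, all upstream, were unchanged. Acly, which makes cytosolic acetyl-CoA, had 2 UP regions at 3050 and 7704 bp upstream of an UP TSS. A DOWN region lay 2416 bp upstream of G6pc, the glucose-6-phosphatase gene, whose TSS was unchanged. Not every unchanged region of the genes named from these lists is given. Counts in all of these lists are descriptions, and none was tested as a set.

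Sequence features that the rule did not use differed in frequency between UP and DOWN intergenic regions. Matches to 14 motifs were sought on both strands in the 300 bp at the centre of each region, and differences have 99.6% intervals to allow for 14 comparisons. The AP-1 motif, with any middle base, was present in 36.5% of UP, 13.6% of DOWN and 23.2% of unchanged intergenic regions, and in 17.9% of all regions. UP minus DOWN, the difference was 22.9 points (from 16.4 to 29.1). The ATF4-CHOP motif was present in 12.1% of UP and 4.22% of DOWN regions, beside 5.62% of unchanged ones and 5.44% of all regions, a difference of 7.85 points (from 3.69 to 12.0). Within 5 groups of GC content these differences were 22.4 points (from 16.04 to 28.8) and 7.68 points (from 3.58 to 11.8). AP-1 and ATF4-CHOP matches were thus more frequent in UP regions, and 82 of the 323 intergenic windows with an ATF4-CHOP match also had an AP-1 match. The direction was the same in the other 27184 regions. There AP-1 was in 23.0% of UP and 12.6% of DOWN regions, and ATF4-CHOP in 9.34% and 4.57%.

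The nuclear receptor motif went the other way. It was present in 20.3% of UP and 28.6% of DOWN intergenic regions, beside 26.2% of unchanged ones and 21.9% of all regions. The difference was -8.28 points (from -14.9 to -1.70). In the other 27184 regions the motif was in 18.9% of UP and 24.1% of DOWN regions. The FOXA, HNF4, CEBP and D-box motifs, in the patterns used here, did not differ between the classes beyond their intervals. The FOXA motif TGTTTNC was present in 31.4% of UP and 32.1% of DOWN regions, and the HNF4 motif CAAAGNCCA in 3.56% and 4.22%. The CEBP motif TTNNGCAA was present in 15.1% and 14.3%, and the D-box TTANGTAA in 2.92% and 3.46%. The intervals of these 4 differences ran from -7.84 to 6.39 points for FOXA, from -3.92 to 2.37 for HNF4, from -4.72 to 6.20 for CEBP and from -3.56 to 2.24 for the D-box. Those 4 motifs were found in 25.8%, 2.91%, 13.2% and 2.89% of all regions. The remaining 7 motifs gave no called difference either. They were the cyclic AMP response element (CRE, TGACGTCA, 0.727% of all regions), the UPR element (UPRE, TGACGTGG, 0.444%), the antioxidant response element (ARE, TGACNNNGC, 14.6%), the ONECUT motif (ATCAAT, 9.64%), the ETS motif (CCGGAA, 8.69%), the ER stress element and the HNF1 motif. CRE matched 3 UP and 3 DOWN windows (-0.07 points, from -1.70 to 1.33). UPRE matched 5 UP and 3 DOWN windows (0.18 points, from -1.48 to 1.73). With so few matches, a relative difference in CRE or UPRE could not be judged. The HNF1 pattern is 13 bases long and was matched in 0.0248% of all regions. The ER stress element is 19 bases long and was matched in 0.0373%. Both were found in 0 changed intergenic windows. This allows a share of such matches of up to 0.486% of UP and 0.575% of DOWN regions (upper Wilson bounds). Sites that deviate from these long patterns were not counted, so how often HNF1 or ER stress element sites occur could not be judged.

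The AP-1 share was higher in UP than in DOWN regions at genes of each TSS class with enough regions to compare. The motif was in 33.7% of the 193 UP regions at UP-TSS genes and 42.3% of the 52 UP regions at DOWN-TSS genes, against 10.1% of 69 DOWN regions at UP-TSS genes and 9.45% of 127 at DOWN-TSS genes. It was in 37.1% of UP and 15.9% of DOWN regions at unchanged-TSS genes, and in 37.6% and 14.3% where no TSS lay in a listed region, while the 34 regions at genes of both classes were not examined. Whether the difference itself depends on the TSS class was not tested. By distance, it was in 38.0% of UP and 14.3% of DOWN regions at 1 to 5 kb and in 42.9% and 16.5% at 20 to 50 kb. Base composition differed little, with a median GC content of 45.3% in UP, 46.4% in DOWN and 46.4% in unchanged intergenic regions.

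**Figure D5:**
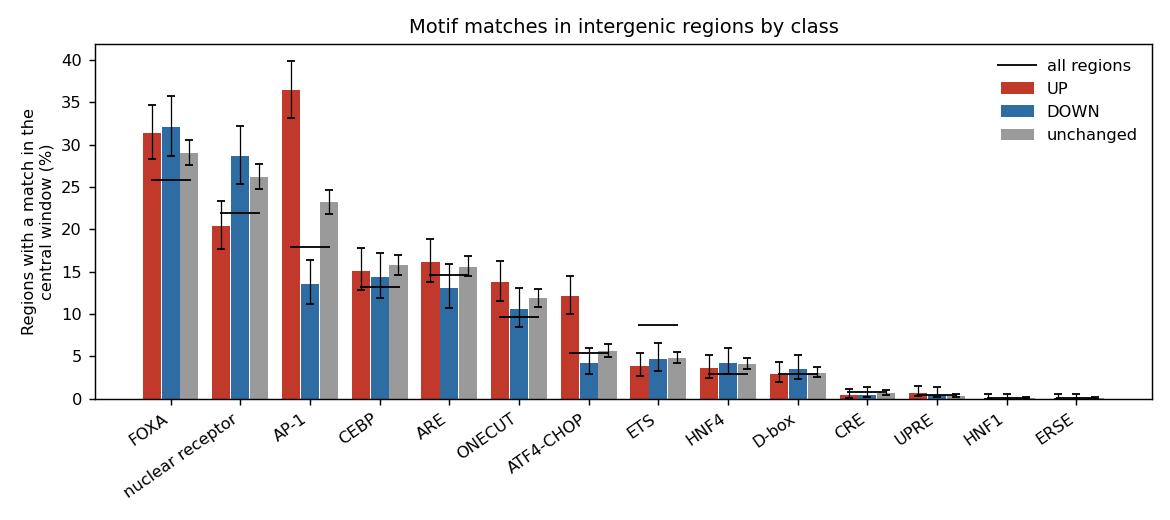
Share of intergenic regions with a motif match in the central 300 bp (y axis, %) for 14 motifs (x axis), by class of the region. Error bars are 95% Wilson intervals, and black lines give the share over all regions of the series. AP-1 stands at 36.5% of UP and 13.6% of DOWN regions.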

How the data were processed

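The authors sequenced chromatin immunoprecipitated with an H3K27ac antibody and input DNA from MPH, aligned reads to mm10 with Bowtie and called broad peaks on pooled libraries with MACS2. They counted reads in 150 bp bins with csaw, filtered bins against input, normalized by loess and fitted a paired model. Bins overlapping a peak by at least 75 bp were combined. Regions passed at an FDR threshold of 0.05 and were classed as UP where rising bins outnumbered falling ones by a ratio of 2 or more, as DOWN where the ratio was 0.5 or less, and were discarded in between. The deposited lists hold positions only, with no counts per library. Their positions (unit: other) were read as 0-based starts and written 1-based.

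GENCODE release M21 gave 141767 transcript TSSs of 55450 genes. Distance was measured from the region edge to the nearest TSS of 21951 protein-coding genes, and side along that gene's strand. The class at a gene was that of the regions holding any of its TSSs. Shares have 95% Wilson intervals and differences 95% Newcombe intervals, 99.6% for the 14 motifs. A difference was called where its interval excluded 0, and no p-value was computed. The 15 differences against single groups of regions were chosen after the data had been seen. The intergenic set, the gene lists and the motifs were chosen with earlier results of these data known. LIVER-ID and UBQ lists are the study's own, and 513 of 621 and 506 of 657 symbols matched protein-coding genes.

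Named genes were, for each class, the 10 nearest genes with the most regions of that class, the nearest genes of the 5 widest regions, and up to 4 genes per list with the most changed regions. A gene that this rule names is not reported here. Flanking genes named with opposite classes and the marker genes are additional, the former chosen after their values were seen. Sequence windows came from the widest regions of these genes, outside chromosome 18, and those for the HNF4 and D-box motifs are not shown. Sequences were read from the GRCm38.p6 genome (RefSeq), in which 500 of 500 RefSeq promoters matched their coordinates. Alternatives were region width, distance from the midpoint, gene-level 5′ ends, limits of 2 kb and 20 kb, 1 region per gene, base pairs, gene length, the TSS used for the class, and motif windows. Functions were tested on simulated data. Python 3.11.15, numpy 2.4.6, pandas 2.3.3, scipy 1.17.1, pyfaidx 0.9.0.4 and matplotlib 3.10.9 were used.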

Additional observations from a re-analysis of the deposited data

How the results depend on the processing

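Across 114 repeats of the values that answer a comparison, 99 were counted as the same. Where an interval was computed, this means the same direction and call. Base pairs and counts of called motifs had no interval. For base pairs it means a value inside the main interval, and for motifs a like count. When only regions of 1 kb or more were used, the UP difference between 1 to 5 kb and 20 to 50 kb became 0.27 points, the DOWN difference -3.30 points, the UP difference between DOWN-TSS and unchanged-TSS genes -3.40 points and the difference in shared direction by side 9.18 points, none of them called. With gene-level 5′ ends in place of all transcript TSSs, the UP difference by side was -0.57 points and the shared direction by side 9.29 points, neither called. With 1 region per gene, the UP difference to other regions was -1.29 points, the DOWN difference by distance -2.17 points and the shared direction by side 9.76 points, all not called, while the DOWN difference by side, -2.64 points, was called. The UP difference to other regions was -0.66 points within 5 groups of width, not called, and -3.75 points in base pairs. The UP difference between DOWN-TSS and unchanged-TSS genes was -3.08 points with no TSS within 2 kb and -3.58 points with the nearest TSS at most 20 kb away, neither called. Over whole regions, 5 motifs in place of 1 were more frequent in DOWN: CEBP (-8.69 points), HNF4 (-6.46), FOXA (-10.7), ETS (-6.10) and AGGTCA. DOWN intergenic regions had a median width of 1807 bp and UP regions of 1417 bp, and the part of width in these calls was not tested. The CEBP difference, 0.81 points and not called in the central 300 bp, thus changed sign over whole regions. Other differences not called in the central 300 bp changed sign for ARE (-4.43) and ONECUT (-3.998) over whole regions. The same held for CRE in 500 bp (0.14) and whole regions (0.12), UPRE in 500 bp (-0.014), and FOXA in regions of at least 1 kb (1.65). The cause of the other changes was not tested either. An alternative with the nearest gene that has a TSS in an H3K27ac region was added after seeing the data and changed no call. No paired analysis was possible because the lists hold no value per library, and for the same reason no replicate could be left out. Depth per library is unknown, and what it limits cannot be given.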
